A study of Mus musculus with 6 samples.

Results

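The genes described here code for splicing factors and neuronal RNA-binding proteins, chosen by name: all rows of the deposited table whose gene symbol begins with Srsf, Hnrnp, Rbm and a digit, Sf3, Celf, Mbnl, Rbfox, Elavl, Nova1, Nova2, Ptbp or Tra2. The rule itself used no measured value, but it was set with earlier results of these data known. It gave 93 genes and 240 transcript rows, of 15450 named genes and 26334 named rows in all. Of the 93 genes, 42 had 1 row and 51 had 2 or more, up to 13 for Rbm39. They fall into 11 families: 31 Rbm, 21 Hnrnp, 11 Srsf, 9 Sf3, 5 Celf, 4 Elavl, 3 Ptbp, 3 Rbfox, 2 Mbnl, 2 Nova and 2 Tra2 genes. Among the 93 are Rbm3os, an antisense RNA of Rbm3, and Hnrnpa1l2-ps, a processed pseudogene related to Hnrnpa1.

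The study sorted live Thy1-positive cells from mouse retinas after optic nerve crush and sequenced their polyadenylated RNA, asking how supplied Sox11 changes the transcriptome of retinal ganglion cells. The optic nerve is made of the axons of these neurons, and Sox11 is known as a transcription factor of neuronal development. Mice of both groups entered the study at 3 to 4 weeks of age, kept an adeno-associated virus (AAV) in the eye for 2 weeks, and had the nerve crushed 3 days before they were killed. The control group received AAV-Control, listed as AAV-PLAP, and the other received AAV-Sox11. Each group had 3 libraries, A, B and C, each from 3 retinas of 3 animals pooled, and the 2 preparations of a letter were made on the same day. A p-value therefore rests on the spread between pools, and no uncrushed eye was part of these libraries. The sources used here name neither the promoter and serotype of the virus nor the mouse strain.

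Splicing joins the exons of a pre-mRNA. The spliceosome carries it out, with the SF3A and SF3B complexes among the parts that hold the branch point. SR proteins (Srsf and Tra2 genes) mostly favour the use of an exon they bind, whereas hnRNP and PTB proteins often repress it, and several neuronal proteins (Rbfox, Nova, Elavl, Celf, Mbnl) set which exons neurons use. Many of these genes limit their own protein through a transcript with a retained intron or with a poison exon, an exon that brings in a premature stop codon and routes the RNA to nonsense-mediated decay. Of the 240 rows, GENCODE M21 lists 109 as protein coding, 91 as retained intron, 25 as processed transcript and 13 as targets of nonsense-mediated decay.

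The sequences below belong to decay-class rows described further on. Each is the part of an exon up to and including the stop codon in which a decay-class transcript ends its reading frame, 5′ to 3′, with that stop codon in capitals (GRCm38).
Tra2b-206, chr16:22259181-22259261, minus strand: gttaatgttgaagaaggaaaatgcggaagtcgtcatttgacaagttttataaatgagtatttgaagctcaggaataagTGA
Srsf4-203, chr4:131884276-131884390, plus strand: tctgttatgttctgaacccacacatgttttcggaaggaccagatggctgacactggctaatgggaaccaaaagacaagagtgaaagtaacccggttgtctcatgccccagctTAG
Srsf6-201, chr2:162932815-162932966, plus strand: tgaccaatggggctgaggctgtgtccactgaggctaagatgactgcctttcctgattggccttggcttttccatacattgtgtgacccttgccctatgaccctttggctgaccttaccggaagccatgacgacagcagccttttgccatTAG
Rbm3-208, chrX:8144383-8144445, minus strand: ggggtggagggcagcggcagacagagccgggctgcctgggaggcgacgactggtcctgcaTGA
Rbm39-222, chr2:156178881-156178952, minus strand: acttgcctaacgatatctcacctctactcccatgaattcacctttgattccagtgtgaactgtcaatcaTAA
Hnrnpll-203, chr17:80044976-80045022, minus strand: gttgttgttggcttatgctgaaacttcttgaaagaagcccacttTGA
These pieces are 81, 115, 152, 63, 72 and 47 bases long, in exons of 276, 207, 268, 271, 73 and 83 bases. Apart from that of Srsf6-201, the exons overlap no exon of a protein-coding transcript of the gene in GENCODE M21.

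A further pair of sequences belongs to Srsf12, of whose rows 1 passed and the other did not. Srsf12-202 has 5 exons and holds these 2, of 105 and 104 bases and wholly coding, which the 3-exon row Srsf12-201 lacks. No capitals are used here, since the whole exon is the difference.
Srsf12-202, chr4:33223568-33223672, plus strand: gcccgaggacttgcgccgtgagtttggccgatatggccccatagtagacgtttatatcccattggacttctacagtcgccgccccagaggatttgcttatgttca
Srsf12-202, chr4:33225765-33225868, plus strand: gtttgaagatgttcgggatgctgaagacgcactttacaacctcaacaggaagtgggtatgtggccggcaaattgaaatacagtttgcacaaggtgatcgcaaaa

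Values are the normalized values that the authors deposited, a signal given per transcript row. A gene's value is the sum of its rows, and values are always given for libraries A, B and C in that order. Deposited whole-number totals lay between 10747985 and 11546892 per library, and 1 direction across the libraries had been taken out of the values before deposit, mostly within the AAV-Sox11 group (57.7% of its squared weight lay on AAV-Sox11 B). Spread along that direction is missing from every SD and p-value given here. Fold changes are AAV-Sox11 over AAV-Control, fitted on log2(value + 1). The supplied gene itself, Sox11, had 131, 111 and 100.3 in the controls and 179, 234 and 284 with AAV-Sox11, so the AAV-Sox11 libraries lay above the controls, with a log2 fold change of 1.003 and an adjusted p of 0.0504. The cells held markers of several retinal types. Of 17 listed ganglion cell markers, 16 were measured, and they summed to between 11067 and 13995 in the controls and between 11248 and 14577 with AAV-Sox11. Rod markers (11 of 11 measured) summed to between 43771 and 68052 and between 27184 and 49064, and 8 Muller glia markers to between 33857 and 59401 and between 44681 and 52924. In bulk samples, fewer cells of a type and less RNA per cell cannot be told apart.

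Splicing factor and RNA-binding protein genes were little changed between the groups. Of the 93 genes, 0 rose and 2 fell, Rbm24 and Rbfox3, in limma's moderated test with a Benjamini-Hochberg adjusted p under 0.05 over all 15450 genes. Of all genes, 0.796% passed as higher and 1.52% as lower, against 2.15% of the 93 as lower. With the preparation day as a block the counts over all genes were 323 higher and 414 lower in place of 123 and 235, and the same 2 members passed. With the removed direction or an index of Y-linked against Xist expression (the sex index) as a covariate, or without any 1 AAV-Sox11 library, 0 genes of all 15450 passed in either direction, the 2 members included, with 1942 to 3120 genes at an unadjusted p under 0.05. The sex index itself lay lower in each AAV-Sox11 library than in any control. With scaling to library size alone, 22.4% of the calls over all genes were higher, against 34.4% here. At an unadjusted p under 0.05, 16 of the 93 genes passed (17.2%, 12 higher and 4 lower), against 24.3% of all genes (12.6% higher and 11.8% lower). The groups did not overlap for 22 of the 93 (23.7%, 16 higher and 6 lower), against 30.7% of all genes (16.2% higher and 14.4% lower). The median log2 fold change was 0.038 over the 93 and 0.032 over all genes, and 86 of the 93 (92.5%) lay within 0.5 of 0, against 80.2% of all genes. The median standard error was 0.107 over the 93 and 0.180 over all genes. The 2 shares within this fixed band therefore compare genes measured with unlike precision.

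**Figure D1:**
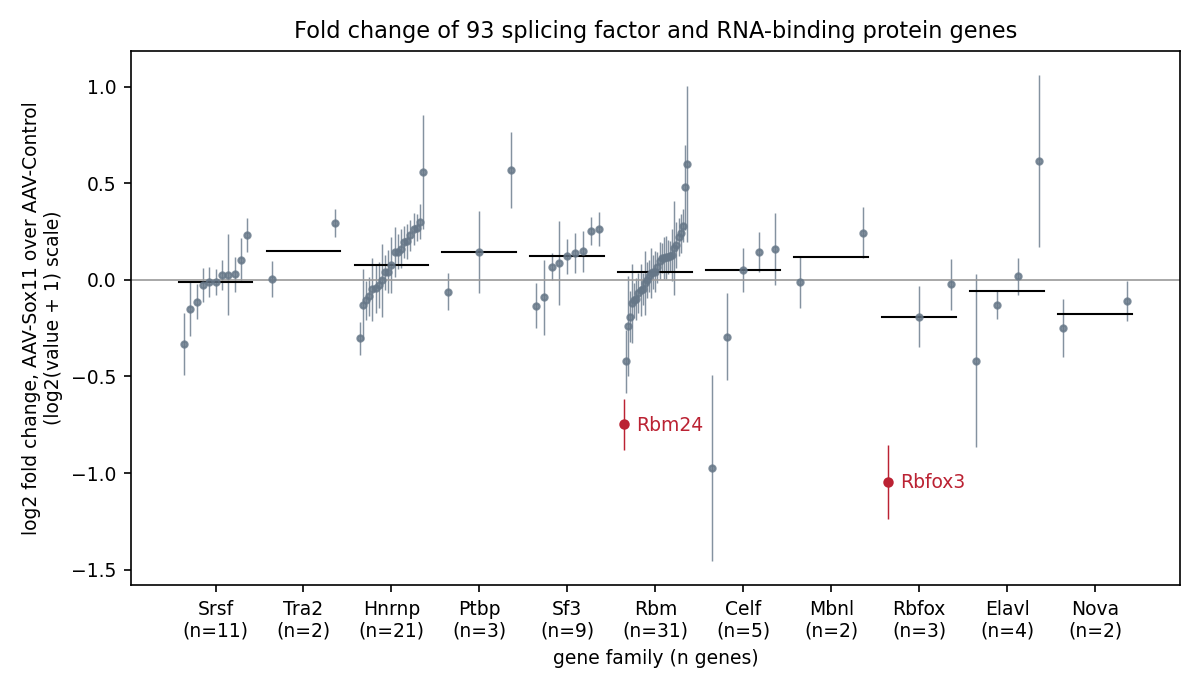
Log2 fold change of AAV-Sox11 over AAV-Control on the log2(value + 1) scale for each of the 93 genes, grouped by family (x axis). Points are limma estimates, bars are standard errors and black lines are family medians; the 2 genes with an adjusted p under 0.05, Rbm24 at -0.75 and Rbfox3 at -1.04, are in red, and 86 genes lie within 0.5 of 0.

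The summed value of the 93 genes was 148029, 148773 and 151298 in the controls and 156874, 159642 and 163029 with AAV-Sox11. Each AAV-Sox11 library lay above each control in this sum. As a share of all named genes it was 1.33, 1.34 and 1.42% in the controls and 1.41, 1.38 and 1.41% with AAV-Sox11, so that the shares overlapped. Of the 93 genes, 37 had a mean value of at least 1000, 76 of at least 100 and 8 one under 50. These values include non-coding rows, and 11 of the genes had no coding row.

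Rbm24, an RNA-binding protein known for muscle splicing programmes, fell 1.68-fold. Its single row, Rbm24-201 (chromosome 13, 46418434 to 46431095, plus strand, GRCm38, 4 exons, no overlapping gene), had 685, 569 and 785 in the controls and 411, 373 and 421 with AAV-Sox11. The highest AAV-Sox11 library lay below the lowest control, and AAV-Sox11 was lower in each of the 3 same-day pairs. The mean ± SD over 3 libraries was 680 ± 108 in the controls and 402 ± 25.5 with AAV-Sox11, and limma gave a log2 fold change of -0.75 with SE 0.13 (adjusted p 0.0395).

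Rbfox3, the neuronal splicing factor known as NeuN and a common marker of neuronal nuclei, fell 2.06-fold. It lies on chromosome 11 (118489762 to 118911597, minus strand), where 3 other genes overlap it, 1 of them on the other strand. Summed over both rows it had 106, 84.3 and 96.5 in the controls and 54.2, 44.7 and 39.2 with AAV-Sox11. No library overlapped between the groups here either. Means were 95.5 ± 10.8 and 46.0 ± 7.59 (SD, n = 3), with a log2 fold change of -1.04 with SE 0.19 (adjusted p 0.043). The full-length row Rbfox3-201, of 15 exons, had 91.3, 68.6 and 78.2 in the controls and 50.04, 40.5 and 34.2 with AAV-Sox11 and did not pass (log2 fold change -0.92, SE 0.21, adjusted p 0.0631). With the day as a block it did, at 0.0435. The short row Rbfox3-210, of 8 exons and 710 bases, fell: it had 14.6, 15.7 and 18.3 in the controls and 4.18, 4.16 and 5.03 with AAV-Sox11, with a log2 fold change of -1.65 with SE 0.26 (adjusted p 0.0302), at values low enough that 1 unit more or less is a large part of them.

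Both genes ceased to pass under some settings while their direction held in all of those run. With the removed direction as a covariate the adjusted p was 0.106 for Rbm24 and 0.136 for Rbfox3. With the sex index it was 0.212 and 0.203, at log2 fold changes of -0.57 and -0.84. That index was -6.816, -6.793 and -5.262 in the controls and -6.865, -8.114 and -8.446 with AAV-Sox11. Since it lay lower in each AAV-Sox11 library, this fit cannot fully tell it apart from the group. Leaving out any 1 AAV-Sox11 library gave 0.112, 0.204 and 0.114 for Rbm24 (A, B and C in turn) and 0.096, 0.246 and 0.129 for Rbfox3, and leaving out control A gave 0.0849 and 0.0810. Without control C, Rbfox3 had 0.0637 and Rbm24 0.0495.

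Several marker lists lay lower beside these 2 falls, although no bipolar, cone, rod or microglia marker passed in limma. All 9 measured bipolar cell markers had a negative fold change, and their sum was 7912 to 12423 in the controls and 6562 to 7583 with AAV-Sox11, without overlap. All 7 cone markers and 10 of 11 rod markers were also negative, with sums of 742 to 2689 against 594 to 868 for cones, and with overlap for both lists. All 6 microglia markers were negative as well (median log2 fold change -0.55), with overlapping sums. Ganglion cell markers had the opposite sign in 11 of 16, with a median of 0.66. Amacrine cell markers were positive in 5 of 8, with a median of 0.17. Their sums were 19023 to 32266 in the controls and 28775 to 37581 with AAV-Sox11, with overlap. The listed markers that passed were Stmn2 (higher, 1.04) and Ebf1 and Ebf3 (lower, -0.83 and -1.08) among those of ganglion cells and Pax6 and Slc6a9 (lower, -0.60 and -0.93) among those of amacrine cells. None of the listed markers measured stood at 0, and the part of these cells in the falls of Rbm24 and Rbfox3 was not tested.

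Of the 16 Celf, Mbnl, Rbfox, Elavl and Nova genes, Rbfox3 alone passed in limma, as lower (6.25%, against 1.52% of all genes). No other had an unadjusted p under 0.05, so that share was also 6.25%, against 24.3% of all genes. The groups did not overlap for 3 of the 16, all lower (18.8%, against 30.7% of all genes in either direction). Rbfox1, the most abundant Rbfox gene, had 2622, 2972 and 2909 in the controls and 2344, 2775 and 3317 with AAV-Sox11, with a log2 fold change of -0.02 with SE 0.13 (adjusted p 0.931). Rbfox2 had 83.5, 87.3 and 95.5 in the controls and 70.9, 75.8 and 86.5 with AAV-Sox11, with a log2 fold change of -0.19 with SE 0.16 (adjusted p 0.484). In both, the groups overlapped, so the 3 Rbfox genes did not show 1 pattern of separation, but differences between their fold changes were not tested. Nova1, which binds short pyrimidine-rich repeats in neuronal pre-mRNA, had 3389, 3341 and 3662 in the controls and 2869, 3131 and 3685 with AAV-Sox11 (log2 fold change -0.11, SE 0.10, adjusted p 0.555). Nova2, its cortical paralogue, had 232, 178 and 168 in the controls and 156, 163 and 162 with AAV-Sox11 (log2 fold change -0.25, SE 0.15, adjusted p 0.348). All 3 AAV-Sox11 libraries lay below the controls for Nova2, the nearest values being 168 and 163.

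The Elavl genes code for Hu proteins, which bind AU- and U-rich sequence and stabilize mRNA. Elavl1 (HuR), expressed in most cells, had 3012, 3401 and 3193 in the controls and 2907, 3268 and 3574 with AAV-Sox11, with a log2 fold change of 0.02 with SE 0.10 (adjusted p 0.930). Elavl3 had 3195, 3265 and 3066 in the controls and 2735, 2938 and 3048 with AAV-Sox11, with a log2 fold change of -0.13 with SE 0.07 (adjusted p 0.327). Elavl3 was lower in each AAV-Sox11 library than in any control, but by less than the test could call. Elavl2, measured only through 2 retained-intron rows, had 23.3, 41.2 and 82.0 in the controls and 55.3, 57.1 and 92.5 with AAV-Sox11, with a log2 fold change of 0.62 with SE 0.44 (adjusted p 0.426). Elavl4 was measured only through a processed-transcript row of 464 bases. That row had 12.6, 23.5 and 36.7 in the controls and 11.5, 14.5 and 26.1 with AAV-Sox11. The log2 fold change of Elavl4 was -0.42 with SE 0.45 (adjusted p 0.597). Both vary several-fold within a group, from 23.3 to 82.0 for Elavl2 and from 12.6 to 36.7 for Elavl4 in the controls, so that their standard errors are among the widest here.

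Celf and Mbnl proteins act against each other at many exons of muscle and brain. Mbnl1 had 5858, 7538 and 8347 in the controls and 8998, 8376 and 8132 with AAV-Sox11, with a log2 fold change of 0.24 with SE 0.13 (adjusted p 0.297). Mbnl2 had 144, 145 and 153 in the controls and 132, 144 and 164 with AAV-Sox11, with a log2 fold change of -0.01 with SE 0.13 (adjusted p 0.973). Celf2 had 2098, 2509 and 2237 in the controls and 2721, 2589 and 2250.4 with AAV-Sox11, with a log2 fold change of 0.14 with SE 0.10 (adjusted p 0.428). In these 3 genes the groups overlapped. Celf3 had 3569, 1897 and 1995 in the controls and 1968, 1937 and 1923 with AAV-Sox11, where control A stood apart from the other 5 libraries, and a log2 fold change of -0.29 with SE 0.22 (adjusted p 0.449). Without control A its log2 fold change was -0.00. Control A was also the highest library for the sums of rod, cone and bipolar markers. Celf1 had 84.5, 126 and 121 in the controls and 125, 125 and 115 with AAV-Sox11, Celf4 175, 161 and 169.8 in the controls and 177, 173 and 173 with AAV-Sox11, and Celf5 13.6, 20.6 and 21.2 in the controls and 4.19, 8.32 and 18.1 with AAV-Sox11. The adjusted p of these 3 was 0.628, 0.811 and 0.261, and no group separated from the other.

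The polypyrimidine tract binding proteins are known for a switch in neurons: Ptbp1 is kept low and its neuronal paralogue Ptbp2 takes its place. Ptbp2 had 2363, 2060.2 and 2509 in the controls and 2185, 2123 and 2322 with AAV-Sox11, with a log2 fold change of -0.06 with SE 0.09 (adjusted p 0.721). Ptbp1 had 44.6, 59.8 and 54.0 in the controls and 66.7, 79.97 and 89.5 with AAV-Sox11, all AAV-Sox11 libraries above all controls, with a log2 fold change of 0.57 with SE 0.20 (adjusted p 0.140). It was measured only through 2 retained-intron rows and overlaps Plppr3 on the other strand, and whether the counting used strand is unknown from the sources used here. Ptbp3 had 38.8, 53.0 and 46.3 in the controls and 42.8, 51.9 and 58.3 with AAV-Sox11, with a log2 fold change of 0.14 with SE 0.21 (adjusted p 0.706).

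Per kilobase of transcript (each row's value divided by its length, then summed over rows), Mbnl1 was the highest of these 19 genes at 1393 ± 193, followed by Rbfox1 at 1020.5 ± 120.2, Celf2 at 852 ± 71.4, Celf3 at 807 ± 242, Ptbp2 at 672 ± 49.9, Elavl3 at 607 ± 37.8, Elavl1 at 562 ± 42.8 and Nova1 at 468 ± 43.8 (value per kilobase, mean ± SD over 6 libraries). Celf1 came next at 233 ± 41.2, mostly through the row of only 271 bases. Celf2, Celf3 and Ptbp2 differed from their neighbours among these 3 by less than the SD of Celf3, and the other neighbours down to Nova1 by more than the SD of either gene. Rbfox3 at 33.7 ± 15.8 lay far below Rbfox1, close to Rbfox2 at 38.0 ± 4.57 and Ptbp1 at 40.9 ± 10.8. The lowest were Nova2 at 21.1 ± 3.36, Ptbp3 at 7.08 ± 1.05 and Celf5 at 3.71 ± 1.797.

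**Figure D2:**
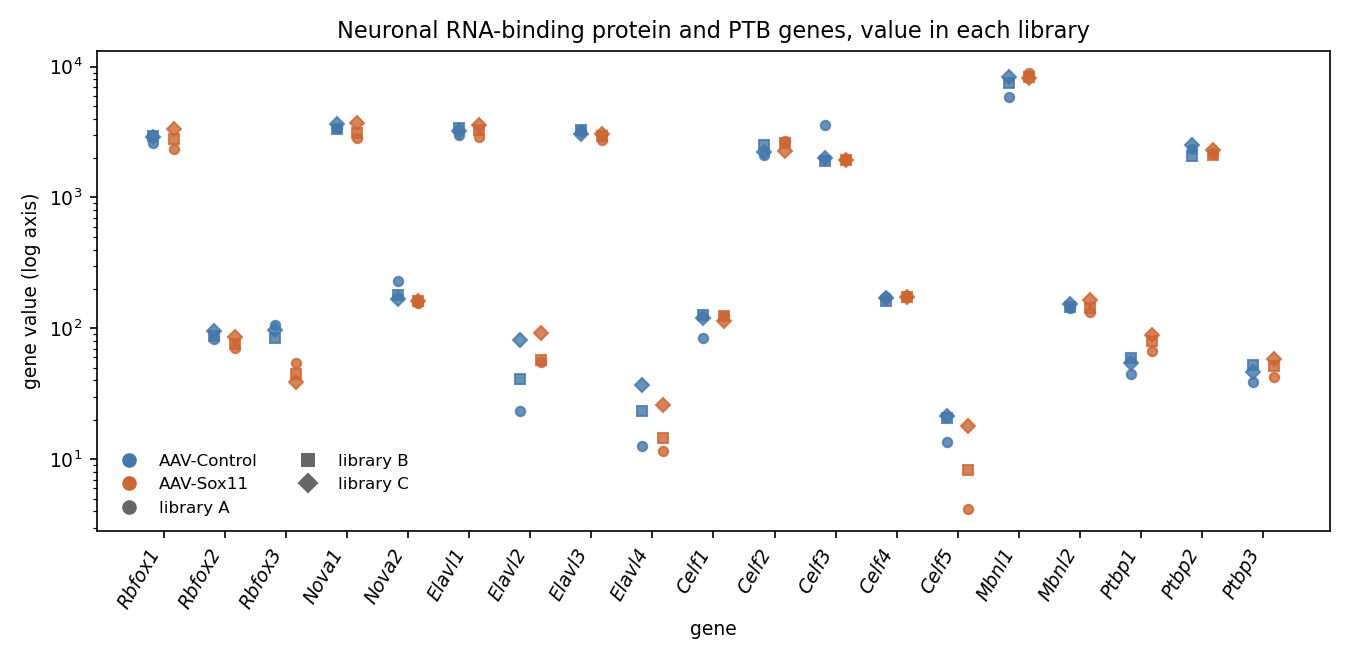
Value of each neuronal RNA-binding protein gene and PTB gene in each of the 6 libraries (y axis, log scale; blue AAV-Control, orange AAV-Sox11; marker shape gives the library letter). Groups do not overlap for Rbfox3, Nova2 and Elavl3 (lower with AAV-Sox11) and for Ptbp1 (higher), and control A stands apart for Celf3 at 3569.

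The SR proteins and the related Tra2 genes showed no call: 0 of 13 rose and 0 fell, with a median log2 fold change of 0.005 and 2 at an unadjusted limma p under 0.05 (15.4%, against 24.3% of all genes). Tra2b, which activates exons through GAA-rich enhancers, came nearest. It had 1969.9, 1914 and 2046 in the controls and 2317, 2403 and 2557 with AAV-Sox11, above the controls in all 3 AAV-Sox11 libraries, with a log2 fold change of 0.29 with SE 0.07 (adjusted p 0.0734). Its paralogue Tra2a had 3348, 3363 and 2898 in the controls and 3345, 3337 and 2954 with AAV-Sox11 and a log2 fold change of 0.01 with SE 0.09 (adjusted p 0.980), a fold change whose sign turned negative with library-size scaling. Of the SR genes, Srsf7 had 2212, 2431 and 2641 in the controls and 2774, 2805 and 2956 with AAV-Sox11 and also lay above the controls throughout, with a log2 fold change of 0.23 with SE 0.09 (adjusted p 0.158). Srsf2, the most abundant SR gene, had 8585, 7913 and 8898 in the controls and 8755, 8228 and 8173 with AAV-Sox11, with a log2 fold change of -0.01 with SE 0.08 (adjusted p 0.938). Srsf5 had 466, 486 and 587 in the controls and 550.5, 521 and 572 with AAV-Sox11, and Srsf4 177, 209 and 206 in the controls and 199, 179.7 and 156 with AAV-Sox11, with adjusted p of 0.613 and 0.549. No coding row of Srsf4 was measured. Srsf12, an SR-related protein that can repress splicing, had 487, 413 and 421 in the controls and 287, 344 and 431 with AAV-Sox11, with a log2 fold change of -0.33 with SE 0.16 (adjusted p 0.257). Over AAV-Sox11 A, B and C it ranged more widely than over the controls, and its rows differed, as described further on. The other 6 SR genes, Srsf1, Srsf3, Srsf6, Srsf9, Srsf10 and Srsf11, had log2 fold changes of -0.11 to 0.03 and adjusted p of 0.465 or more.

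No hnRNP gene passed: 0 of 21 rose and 0 fell, with a median log2 fold change of 0.078. At an unadjusted p under 0.05, 6 of 21 passed, 5 of them higher, which is 28.6% beside 24.3% of all genes. Hnrnpu, a nuclear scaffold protein, had 4425, 4841 and 4567 in the controls and 5595, 5676 and 5406 with AAV-Sox11, with a log2 fold change of 0.27 with SE 0.07 (adjusted p 0.0799). Its relative Hnrnpul1 had 5429, 4580.4 and 5457 in the controls and 6269, 6153 and 6590.3 with AAV-Sox11, with a log2 fold change of 0.30 with SE 0.09 (adjusted p 0.105). Hnrnpa2b1, the most abundant hnRNP gene here and a factor in RNA transport along processes, had 9923, 9207 and 8650.2 in the controls and 11055, 11094 and 10388 with AAV-Sox11, with a log2 fold change of 0.23 with SE 0.08 (adjusted p 0.142). In these 3 genes each AAV-Sox11 library exceeded each control, and the fitted differences were small, at 1.21-fold, 1.23-fold and 1.17-fold in that order. Hnrnpr went the other way, with 804, 829 and 899 in the controls and 671, 669 and 711 with AAV-Sox11 and a log2 fold change of -0.30 with SE 0.08 (adjusted p 0.0909), again without overlap. Hnrnpd, also called AUF1 and known for binding AU-rich elements, had 2371, 2358 and 2229 in the controls and 1894, 2164 and 2437 with AAV-Sox11, with a log2 fold change of -0.11 with SE 0.10 (adjusted p 0.555). Summed over the 21 genes, the values were 45544, 44620 and 43863 in the controls and 48078, 50245 and 51575 with AAV-Sox11, without overlap. This sum is weighted to a few abundant genes and was not tested. The other 16 hnRNP genes ranged from -0.13 to 0.56 in log2 fold change, the highest being the pseudogene Hnrnpa1l2-ps, and their lowest adjusted p was 0.118.

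The SF3 genes code for the SF3A and SF3B subunits of the U2 snRNP. Of 9 genes, 0 passed in limma and 2 had an unadjusted p under 0.05 (22.2%, against 24.3% of all genes), with a median log2 fold change of 0.121 and 7 positive values. Sf3b1, the largest SF3B subunit, had 10382, 12262 and 11493 in the controls and 12943, 13869 and 14149.9 with AAV-Sox11, with a log2 fold change of 0.27 with SE 0.09 (adjusted p 0.128). Sf3b3 had 2422, 2623 and 2395 in the controls and 2857, 3026 and 2980.4 with AAV-Sox11, with a log2 fold change of 0.25 with SE 0.07 (adjusted p 0.0963). Both were higher in each AAV-Sox11 library than in any control. Sf3a1 had 1626, 1695 and 1623 in the controls and 1687, 1748 and 1752 with AAV-Sox11 and Sf3b4 197, 202 and 189 in the controls and 189.7, 182 and 165 with AAV-Sox11, with log2 fold changes of 0.07 and -0.13 and adjusted p of 0.570 and 0.511. The other 5 genes lay between -0.09 and 0.15. The summed value of the family was 18746, 21232 and 19605 in the controls and 21789, 23511 and 23989 with AAV-Sox11.

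Most of the 31 Rbm genes code for proteins with an RNA recognition motif. Of these 31, 1 fell (Rbm24) and 0 rose, with 2 higher and 2 lower at an unadjusted limma p under 0.05 (12.9%, against 24.3% of all genes). Rbm7, a part of the nuclear exosome targeting complex, had 675, 716 and 725 in the controls and 803, 856 and 913 with AAV-Sox11, with a log2 fold change of 0.28 with SE 0.09 (adjusted p 0.112). Rbm28, a nucleolar protein, had 619, 609.9 and 707 in the controls and 724, 739 and 825 with AAV-Sox11, with a log2 fold change of 0.24 with SE 0.10 (adjusted p 0.193). Both separated upward without passing. Rbm41, of the minor spliceosome, had 187, 212 and 171 in the controls and 157, 171 and 169 with AAV-Sox11, with a log2 fold change of -0.19 with SE 0.13 (adjusted p 0.401). Rbm25, the Rbm gene of highest summed value and a regulator of 5′ splice site use, had 4796, 4584 and 5207 in the controls and 5292, 4835 and 4669 with AAV-Sox11, with a log2 fold change of 0.02 with SE 0.08 (adjusted p 0.905). The groups overlapped in the last 2 genes. The other 26 Rbm genes had log2 fold changes of -0.42 (Rbm19) to 0.60 (Rbm43, of low value) and adjusted p of 0.173 or more.

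A list of 105 further RNA-processing genes covers those outside the families. Of these, 100 were measured: 39 of 41 core spliceosome genes, 8 of 8 SR kinases, 43 of 46 other RNA-binding proteins and 10 of 10 genes of nonsense-mediated decay. None rose and none fell in limma, against 0.796% and 1.52% of all genes, with a median log2 fold change of 0.083. At an unadjusted p under 0.05, 16 of the 100 passed, against 24.3% of all genes. Raver1, a partner of PTB, was nearest to the threshold: it had 1404, 1238 and 1436 in the controls and 1845, 1732 and 1720.5 with AAV-Sox11 (log2 fold change 0.38, SE 0.09, adjusted p 0.0624). The SR protein kinase Srpk1 had 1769, 1709 and 1723 in the controls and 2052, 2204 and 2322 with AAV-Sox11 (log2 fold change 0.34, SE 0.08, adjusted p 0.0627). Srrm3, a splicing activator of neuronal microexons, had the opposite sign, with 1052, 807 and 956 in the controls and 685, 666 and 723 with AAV-Sox11 (log2 fold change -0.43, SE 0.11, adjusted p 0.0791). These 3 genes were singled out after their values were seen. All 3 separate the groups fully, and none passed.

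Among the 240 transcript rows 0 rose and 4 fell (1.67%), where 0.52% of all 26334 rows passed as higher and 1.46% as lower. Besides Rbm24-201 and Rbfox3-210 these were Srsf12-202 and Hnrnpl-208. At an unadjusted p under 0.05, 36 of 240 rows passed (15%, 21 higher and 15 lower), against 22.1% of all rows (9.76% higher and 12.3% lower). In the authors' deposited table, 0 of the 240 rows were higher and 5 lower at a false discovery rate under 0.05 (2.08%, against 1.95% higher and 4.88% lower over all rows). Those 5 are the 4 rows above and Rbfox3-201. The authors' deposited table gives Srsf12-202 a log2 fold change of -1.39 at a false discovery rate of 9.38e-05, Rbm24-201 -0.76 at 0.00414 and Rbfox3-210 -1.83 at 0.00145.

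Srsf12 had 2 coding rows, 1 of which passed. Srsf12-202, the row with the 2 exons printed above, fell 2.56-fold, from 109.7, 78.4 and 79.1 in the controls to 30.2, 33.2 and 38.2 with AAV-Sox11, with a log2 fold change of -1.36 with SE 0.21 (adjusted p 0.0272). Srsf12-201, which lacks them, had 378, 334 and 342 in the controls and 256, 310.5 and 393 with AAV-Sox11, with a log2 fold change of -0.15 with SE 0.16 (adjusted p 0.620), and its groups overlapped. The share of Srsf12-201 in the gene's value was 77.5, 81.0 and 81.2% in the controls and 89.5, 90.3 and 91.1% with AAV-Sox11. Every AAV-Sox11 share lay above every control share, by a log2 ratio of 1.203 ± 0.18 (SE). Over the 13566 rows of all genes of 2 or more rows this share difference had an adjusted p of 0.0986 and did not pass. Among the alternatives the adjusted p of the row Srsf12-202 was 0.0213 to 0.172. Leaving out control A gave 0.068, the 3 fits that each lacked 1 AAV-Sox11 library gave 0.0885, 0.147 and 0.0789 (A, B and C), and the removed direction as a covariate 0.0728.

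Hnrnpl binds CA-rich RNA. Its row Hnrnpl-208, a retained-intron fragment of 3 exons and 504 bases, fell: it had 14.6, 12.7 and 14.5 in the controls and 5.22, 5.195 and 5.03 with AAV-Sox11, with a log2 fold change of -1.28 with SE 0.25 (adjusted p 0.049). The fall was 2.42-fold, at low values, and with the day as a block the adjusted p was 0.0565. Leaving out any 1 library also ended the call, with adjusted p of 0.0579 to 0.288. The other 5 Hnrnpl rows did not pass: Hnrnpl-210 had 14.6, 15.7 and 20.3 in the controls and 33.4, 28.0 and 26.1 with AAV-Sox11, and the gene as a whole had a log2 fold change of 0.20 with SE 0.09 (adjusted p 0.237). Of the gene's value, Hnrnpl-208 took 4.81, 4.33 and 4.82% in the controls and 1.56, 1.52 and 1.42% with AAV-Sox11, a log2 share difference of -1.52 ± 0.17 (SE) with the smallest unadjusted limma p of the member row shares, 2.64e-05, and an adjusted p of 0.0986.

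**Figure D3:**
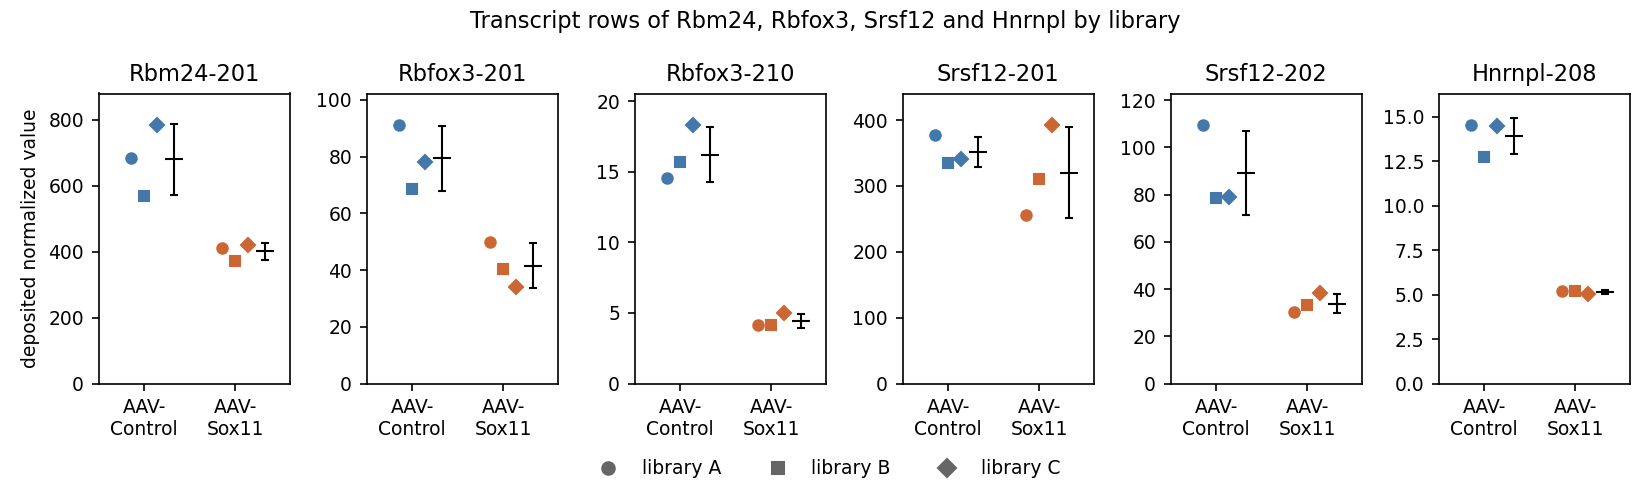
Deposited normalized value (y axis, from 0) of 6 transcript rows in the 3 AAV-Control libraries (blue) and the 3 AAV-Sox11 libraries (orange); black bars are mean and SD over 3 libraries and the marker gives the library letter. The rows of Rbm24, Rbfox3, Srsf12-202 and Hnrnpl-208 separate the groups, whereas Srsf12-201 overlaps.

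No transcript share was called in any gene. In the 51 genes of 2 or more rows, 0 of 179 row shares passed, and 0 of 13566 passed over all genes (0%). At an unadjusted p under 0.05, 13 of the 179 (7.26%), in 11 genes, passed, against 15.8% of all row shares. After Hnrnpl-208 and Srsf12-201 the smallest p belonged to rows of Celf1, Srsf1 and Sf3a3. The coding row Celf1-207 took 41.4, 43.8 and 35.2% in the controls and 50.8, 55.8 and 54.4% with AAV-Sox11 of Celf1, without overlap, at an adjusted p of 0.151. The retained-intron row Srsf1-206 took 0.890, 0.875 and 0.912% in the controls and 0.591, 0.541 and 0.505% with AAV-Sox11 of Srsf1, at an adjusted p of 0.175. For Sf3a3 the coding row Sf3a3-201 took 91.2, 91.3 and 90.4% in the controls and 92.8, 93.7 and 94.0% with AAV-Sox11 and the processed transcript Sf3a3-203 5.84, 4.48 and 5.62% in the controls and 3.86, 3.08 and 2.76% with AAV-Sox11, at 0.231 and 0.192. In these 3 genes the coding share was higher in each AAV-Sox11 library, though none passed.

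Retained-intron rows were a large part of these genes in both groups. They made up 37.9% of the 240 rows, against 22.8% of all named rows, and held 16.6 ± 0.80% of the summed value in AAV-Control and 16.4 ± 1.19% in AAV-Sox11 (mean ± SD over 3 libraries). Over all named rows the same class held 6.16 ± 0.39% and 5.56 ± 0.37%. The 6 libraries gave 16.6, 15.8 and 17.4% in the controls and 17.8, 16.2 and 15.4% with AAV-Sox11 for the 93 genes, so the groups overlapped. Decay-class rows, with 5.42% of the rows, held 0.601 ± 0.040% and 0.546 ± 0.019%. Values were not divided by length here. On the scale per kilobase, retained-intron rows held 21.8% of the value of the 93 genes and 10.4% of that of all named rows, averaged over the 6 libraries. The abundance of this class varies with how counts were assigned to rows that share exons, which the sources used here do not state. For 11 of the 93 genes, Elavl2, Elavl4, Ptbp1 and Hnrnph1 among them, the table held no coding row at all.

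**Figure D4:**
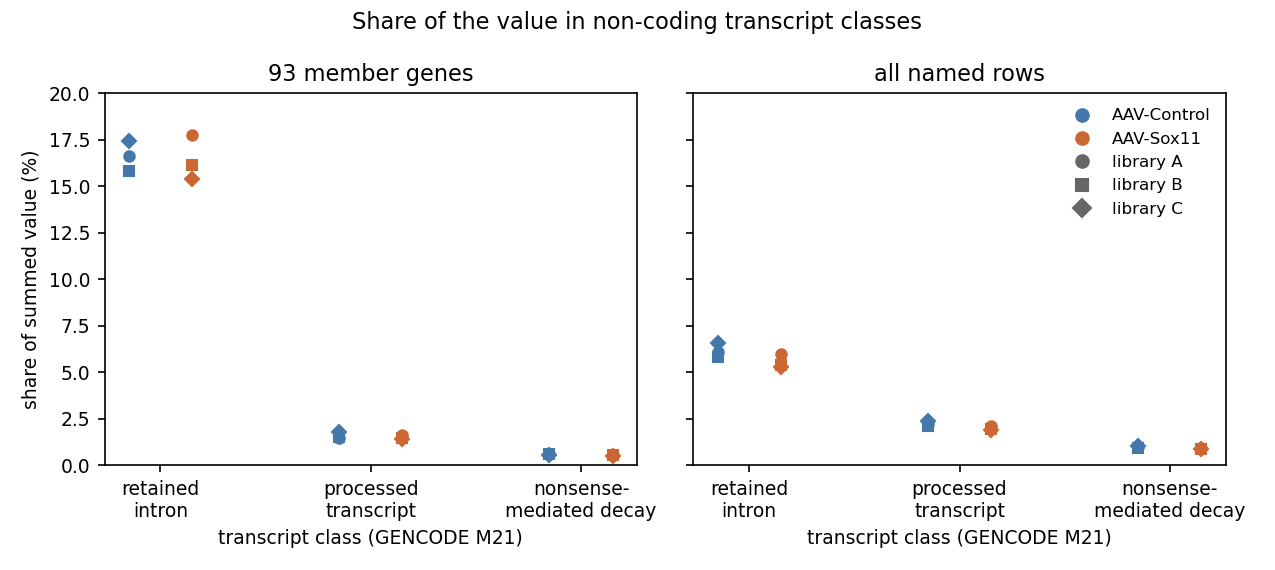
Share (%) of the summed value that lay in retained-intron, processed-transcript and nonsense-mediated-decay rows in each library, for the 93 genes (left) and for all named rows (right). Retained-intron rows held 15.4 to 17.8% of the 93 genes' value and the 2 groups overlap.

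The ratio of non-coding to coding rows could be formed for 33 of the 93 genes. It passed for 0 of them and for 0 of 3406 genes in all (0%). At an unadjusted p under 0.05, 5 of 33 passed (15.2%), against 16.2% of all genes. The median log2 difference was 0.014 over the 33 and -0.149 over all. Celf1 had the largest negative difference: its non-coding share was 58.6, 56.2 and 64.8% in the controls and 49.2, 44.2 and 45.6% with AAV-Sox11, a log2 difference in the ratio of -0.78 ± 0.19 (SE, adjusted p = 0.159). Rbm3, a cold-inducible RNA-binding protein, had 92.8, 87.9 and 90.7% and then 88.3, 85.8 and 85.02% (adjusted p = 0.300). The groups overlapped for Rbm3 and did not for Celf1. Rbm5 had the largest positive difference, with 97.8, 97.4 and 97.8% and then 98.4, 98.3 and 98.2% (adjusted p = 0.272). Srsf10 and Rbm4 were also higher without overlap, with mean non-coding shares (AAV-Control, then AAV-Sox11) of 23.6 and 29.2% for Srsf10 and 63.1 and 68.2% for Rbm4 (adjusted p = 0.332 and 0.344). So were Rbm41 and Hnrnpk. Besides Celf1, the shares of Srsf1, Sf3a3, Rbm17 and Rbm25 were lower without overlap. Of these, Srsf1 and Sf3a3 had the lowest adjusted p in limma, 0.172 and 0.224. How often such shares separate over all 3406 genes was not counted. Srsf3, an SR protein that limits its own level through an alternative exon, had 61.2, 60.6 and 66.9% and then 68.0, 63.8 and 63.0%, with overlap.

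**Figure D5:**
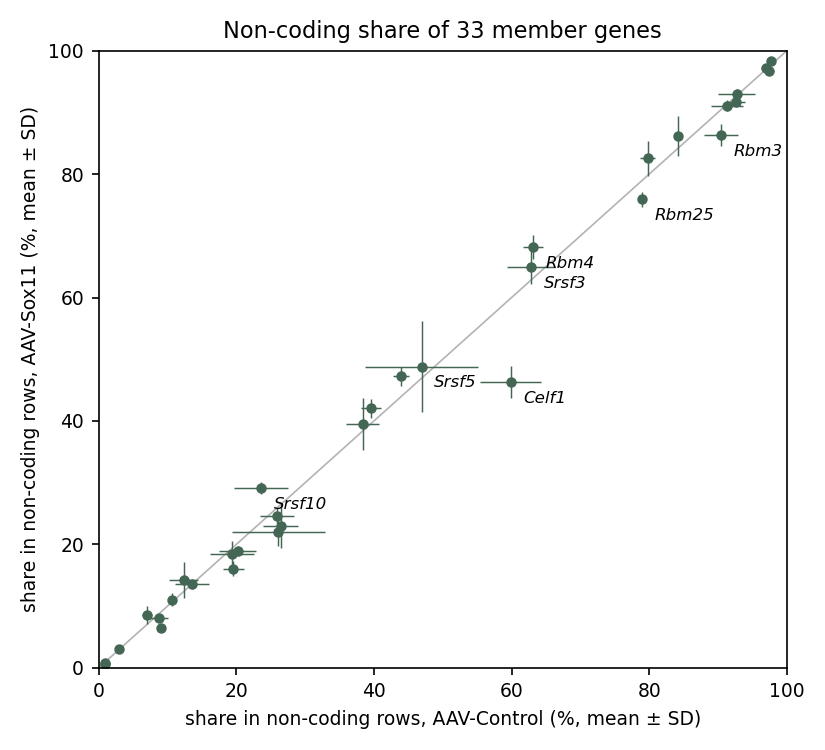
Share (%) of each gene's value in non-coding rows in AAV-Control (x axis) and AAV-Sox11 (y axis) for the 33 genes with both kinds of row; points are means, bars are SDs over 3 libraries, and the line marks equality. Most genes lie close to the line, and Celf1, at 59.9% and 46.3%, lies furthest below it.

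The rows whose stop-containing exons are printed above are of the decay class. How far the values of such rows follow the use of these exons was not tested. Of the 13 decay-class rows, 0 rose or fell in limma, with 1 (7.69%) at an unadjusted p under 0.05. Of all 756 decay-class rows in the table, 16.9% had such a p, 0 were called higher and 0.794% lower. The authors' deposited table called 0 of the 13 as well. The groups did not overlap for 3 of the 13 (23.1%, 1 higher and 2 lower), against 23% of all 756 decay-class rows. Tra2b-206 had 34.0, 27.5 and 21.2 in the controls and 16.7, 24.9 and 34.2 with AAV-Sox11, beside 1529, 1485 and 1456 in the controls and 1745, 1889 and 1993 with AAV-Sox11 for the coding row Tra2b-204. Its share of Tra2b was 1.73, 1.43 and 1.04% in the controls and 0.721, 1.04 and 1.34% with AAV-Sox11. The coding row was higher in each AAV-Sox11 library than in any control, whereas the decay row overlapped. Srsf4-203 had 45.6, 54.9 and 64.6 in the controls and 49.0, 40.5 and 36.2 with AAV-Sox11, with a log2 fold change of -0.38 with SE 0.21 (adjusted p 0.332). Srsf6-201 had 346, 307 and 264 in the controls and 258, 289 and 295 with AAV-Sox11, and took 10.1, 8.74 and 7.31% in the controls and 7.60, 8.33 and 8.17% with AAV-Sox11 of Srsf6. Its log2 fold change was -0.12 and the groups overlapped. Rbm3-208 had 65.0, 82.4 and 67.5 in the controls and 54.2, 55.0 and 48.3 with AAV-Sox11, lower in each AAV-Sox11 library, at a log2 fold change of -0.44 with SE 0.18 (adjusted p 0.199). Rbm39-222 had 25.2, 13.7 and 15.4 in the controls and 12.5, 11.4 and 12.1 with AAV-Sox11 and was also lower throughout, at a log2 fold change of -0.51 with SE 0.29 (adjusted p 0.338). Hnrnpd-204, whose exon is not printed above, was higher throughout. It had 9.70, 14.7 and 17.4 in the controls and 17.7, 17.7 and 18.1 with AAV-Sox11. Its log2 fold change was 0.37 with SE 0.27 (adjusted p 0.462). Hnrnpll, a relative of Hnrnpl, had 61.2, 88.3 and 49.2 in the controls and 106, 93.5 and 53.3 with AAV-Sox11 in its decay row, with overlap. Its retained-intron row Hnrnpll-202 had 103, 109.8 and 102 in the controls and 158, 164 and 155 with AAV-Sox11, at a log2 fold change of 0.60 with SE 0.13 (adjusted p 0.0568), and passed as higher, at 0.0486, only when rows of mean value under 50 were left out of the fit.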

How the data were processed

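Polyadenylated RNA of sorted Thy1-positive mouse retinal cells was measured in 6 libraries, 3 per group. Per the submitters' processing notes, CASAVA 1.8.2, edgeR and the build mm10 were used. The sources used here do not give the aligner, the counter, its use of strand or how reads were assigned to transcripts, and rows of 1 gene share exons. The authors deposited whole-number columns with no unit in their headers, treated here as a score: along 1 direction over the libraries their SD was 9.48e-05 natural log units, against 0.017 from read counting, so they are adjusted values and a count model was not used. The signal analysed is the authors' normalized column, equal to the whole numbers times 1 factor per library (0.9649 to 1.043). The authors also deposited log2 fold changes and p-values with false discovery rates, which are quoted as theirs.

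Rows were summed by gene symbol and tested with limma-trend (limma 3.58.1, R 4.3.3) on log2(value + 1), over all 15450 genes, all 26334 named rows, 13566 row shares or 3406 non-coding to coding ratios, with Benjamini-Hochberg adjustment over each whole table and a threshold of 0.05. A share enters as log2((row + 1)/(other rows of the gene + 1)), and of a gene with 2 rows only the first by transcript ID enters. Fold changes on this scale understate changes of low values. The fit was also run on simulated data with full spread in all directions. Such data cannot show how the test behaves on values from which 1 direction was removed. Transcript classes, coordinates and sequences come from GENCODE M21 (GRCm38, the same assembly as mm10), in which all 240 rows were matched. Named genes are all Celf, Mbnl, Rbfox, Elavl, Nova, Ptbp and Tra2 genes, all genes past the threshold, and in the Srsf, Hnrnp, Rbm and Sf3 families the 2 highest and 2 lowest fold changes among genes of mean value at least 100 and the most abundant gene; for shares, the 6 rows of smallest p. Members and lists were chosen with earlier results of these data known. Of further lists of cell markers, those for astrocytes, endothelium, oligodendrocytes and T cells had no gene past the threshold in either direction.

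The library letters pair the groups by preparation day, per the series description. Deviations from group means correlated by 0.00250 for A, 0.793 for B and 0.236 for C over genes. Pairs of unlike letters ran from -0.876 (control C with AAV-Sox11 B) to 0.198 (control C with AAV-Sox11 A). The removed direction weighted AAV-Sox11 B most (-0.760) and ties its deviations to those of other libraries. These correlations therefore cannot show whether libraries of a letter shared an effect of the day. The alternatives tried were other scalings, pseudocounts of 0.5 and 5, a mean value of at least 50, robust variance, the day as a block, the removed direction and a sex index as covariates, the most abundant row of each gene, and leaving out each library or each day.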

Additional observations from a re-analysis of the deposited data

How the results depend on the processing

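The count of 0 members higher held in all settings run, and so did the counts of 0 for shares and for non-coding to coding ratios. The 2 members lower became 0 once the removed direction, that direction plus the day block, or the sex index entered the model, and 1 with the most abundant row only. The replicate block alone, which pairs libraries by day, kept both genes, gave 323 higher and 414 lower over all genes, and exchanged Hnrnpl-208 (adjusted p = 0.0565) for Rbfox3-201 (0.0435) among the rows. With the removed direction, 0 genes were higher and 0 lower over all genes, 63 and 69 with the block added, and 0 and 0 with the sex index. Library-size scaling gave 356 lower. Of member rows, 2 were lower and 1 was higher (Hnrnpll-202) with a mean value of at least 50, 0 were lower with the removed direction or the sex index, and 2 with block and direction. Leaving out libraries gave 0 to 2 members lower, 0 to 3 member rows lower, and 0 to 339 genes higher and 0 to 406 lower over all. The cause of these changes was not tested.

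Among the genes described one by one, the following changed sign. With library-size scaling Celf4 had -0.012, Elavl1 -0.046, Rbm25 -0.043 and Tra2a -0.059. With the sex index Elavl1 had -0.106, Ptbp2 0.013, Ptbp3 -0.023, Srsf2 0.091, Srsf4 0.044 and Tra2a -0.047. Mbnl2 had 0.001 with median-of-ratios scaling, and with the most abundant row only Celf1 had -0.206 and Rbfox1 0.006. Leaving out libraries gave ranges across 0 for Celf1 (-0.041 to 0.276), Elavl1 (-0.054 to 0.096), Hnrnpd (-0.224 to 0.003), Mbnl2 (-0.091 to 0.062), Ptbp2 (-0.141 to 0.001), Rbfox1 (-0.150 to 0.100), Rbm25 (-0.040 to 0.109), Srsf2 (-0.061 to 0.042) and Tra2a (-0.065 to 0.064).

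With 3 pools per group, a missing within-group direction and transcript rows of low value, differences of the size seen in most members could not be called. A missed threshold does not show equal levels. The 8 genes of mean value under 50 had standard errors of 0.21 or more, against a median of 0.107 over the 93. Elavl2 (SE 0.44) and Celf3 (SE 0.22), of higher mean value, were no more precise than some of these.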
